A study of Mus musculus with 4 samples.

Results

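Pol II occupancy was described here at 10 genes of the Notch pathway, chosen by name out of 21911 protein-coding genes on the assembled mouse chromosomes. They are the receptors Notch1, Notch2 and Notch4, the ligands Dll4, Jag1 and Jag2, the target genes Hey1, Hey2 and Hes1, and Rbpj, the DNA-binding effector. A peak was assigned to a gene's promoter if it overlapped the 1500 bp on either side of any of its transcription start sites (TSS), otherwise to the gene body, and otherwise to the flanks if it lay within 50 kb of the gene's ends. All 10 genes were found in the annotation, and each had at least 1 peak in at least 1 library.

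Notch signalling passes between touching cells. A Delta or Jagged ligand on one cell binds a Notch receptor on its neighbour, the receptor is cut, and its intracellular domain enters the nucleus and joins RBPJ and a Mastermind coactivator on DNA, where genes of the Hes and Hey families are switched on. In vessels, Dll4 and Notch1 restrain the formation of tip cells and favour arterial fate, Jag1 in endothelium instructs the neighbouring mural cells, and Notch4 is a receptor largely confined to endothelium. RNA polymerase II (Pol II) gathers at the start sites of active genes and moves through the body of the gene as it transcribes.

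The data were peak lists from chromatin immunoprecipitation of Pol II in brain endothelial cells (ECs), with 2 libraries in each of 2 groups. Old WT Cre mice (20 to 23 mo) carried the tamoxifen-inducible Cre that the Cdh5 (VE-cadherin) promoter drives in endothelium, and young EC-K4KO mice (4 to 6 mo) carried that Cre together with floxed Klf4. Tamoxifen was given at 8 wk of age in both groups, and in EC-K4KO mice it served to remove the transcription factor KLF4 from ECs. The line was kept on a C57BL/6J background. Each library began with 200000 flow-sorted ECs, and the chromatin was cut with micrococcal nuclease. Age and genotype changed together between the groups and cannot be told apart. The study's methods call the replicates biological, and neither they nor the labels say how many animals went into each library. The libraries are called old 1, old 2, young 1 and young 2 by group and replicate number.

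The 4 libraries differed widely in depth and in the length of their lists. The peak caller counted 22705175 to 65734178 fragments per library, and the lists ran from 35638 peaks in young 1 to 235591 in young 2, the library with the fewest fragments. The tallest single peak of a list held 1.73% to 15.3% of the library's fragments, and leaving those fragments out of the scaling turned no difference between groups. Levels are given in FPM, the pileup (the number of fragments over a peak's summit) as a share of the fragments of the same library, times 1000000. A gene with no peak has no value in the files, and the smallest called pileup was 0.198 and 0.291 FPM in old 1 and old 2 and 0.255 and 0.308 FPM in young 1 and young 2. At Klf4, the floxed gene, a promoter peak was listed at 0.426 and 0.881 FPM in young 1 and young 2 but not in the old WT Cre libraries, and such a peak does not measure the transcript. Of 15 endothelial marker genes, 5, 7, 1 and 10 had a promoter peak in old 1, old 2, young 1 and young 2, with summed levels of 1.67, 4.33, 0.511 and 11.4 FPM. These counts are 33.3%, 46.7%, 6.67% and 66.7% of the list, beside 25.6%, 24.5%, 10.6% and 67.5% of all protein-coding genes, so that in young 1 and young 2 the list did not exceed the share of all genes. Ocln had one in all 4 libraries, Cdh5, Kdr and Flt1 had one in old 1, old 2 and young 2, and Pecam1, Tek, Tie1 and Ly6c1 had none in any library.

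Promoter sequences are shown first for Rbpj, Hey2 and Notch4, the genes whose promoters held letters of the searched motifs. RefSeq promoter entries of GRCm38.p6 (250 bases before to 50 after a gene's start) matched 8 of the 10 genes, and Hes1 and Hey1 had none. The core letters of the RBPJ site, TGGGAA on either strand, were found in the entries of 2 of these 8 genes, Hey2 and Rbpj, and in 25.6% of all 32851 entries. The longer form GTGGGAA, which contains the core, was found at Hey2 alone, against 6.38% of all entries. The KLF letters GGGNGTGGC were found at Hey2 and Notch4, against 5.76% of all entries, and neither the ETS letters CCGGAAGT (3.89% of all entries) nor the E-box CACGTG (7.15%) was found at any of the 8 genes. A match describes letters in a window and not a bound site. In the Rbpj stretch, chr5:53589953-53590213 of mm10 on the plus strand, which lies in an intron of the longest transcripts and just before an internal start site at 53590214, capitals mark the RBPJ core letters, 213 and 17 bases before that start. The first of these cores lies outside the RefSeq entries of Rbpj, which hold a further core past the end of the stretch. In the Hey2 stretch, chr10:30842802-30843033 on the minus strand, capitals mark the core letters on the opposite strand, 207 bases before the RefSeq start (a further core lies past the end of the stretch), and in the Notch4 stretch, chr17:34564045-34564267 on the plus strand, they mark the KLF letters on the opposite strand, 218 and 101 bases before the RefSeq start. Each stretch ends before the annotated exon that follows it.
Rbpj: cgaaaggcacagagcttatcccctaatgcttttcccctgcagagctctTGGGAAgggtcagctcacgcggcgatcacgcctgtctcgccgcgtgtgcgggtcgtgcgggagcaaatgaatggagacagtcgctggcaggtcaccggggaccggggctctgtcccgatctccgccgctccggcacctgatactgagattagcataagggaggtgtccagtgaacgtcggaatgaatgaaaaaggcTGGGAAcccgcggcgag
Hey2: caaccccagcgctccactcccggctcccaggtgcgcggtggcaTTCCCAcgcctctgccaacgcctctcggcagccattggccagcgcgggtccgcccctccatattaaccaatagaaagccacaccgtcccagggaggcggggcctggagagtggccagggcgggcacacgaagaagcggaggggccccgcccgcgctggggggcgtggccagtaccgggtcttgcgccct
Notch4: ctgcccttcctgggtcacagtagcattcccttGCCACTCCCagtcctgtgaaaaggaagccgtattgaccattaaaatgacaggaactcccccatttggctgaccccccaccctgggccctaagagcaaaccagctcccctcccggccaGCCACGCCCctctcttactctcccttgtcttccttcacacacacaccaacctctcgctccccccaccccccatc

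The main question was whether Pol II peaks stood at the promoters of these genes, and in which libraries. Of the 10 genes, 2 had a promoter peak in old 1, where 25.6% of all protein-coding genes had one, and 3 in old 2, where 24.5% did. In young 1 the count was 3 genes, against 10.6% of all genes, and in young 2 it was all 10, against 67.5%. The longest list therefore held a promoter peak at every Notch gene, and 21 promoter peaks were listed in all libraries together, of which young 2 held 13. Their summits held 14 to 33 fragments at 3.19-fold to 7.83-fold enrichment over the local background, so that each level carries a wide counting error.

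**Figure D1:**
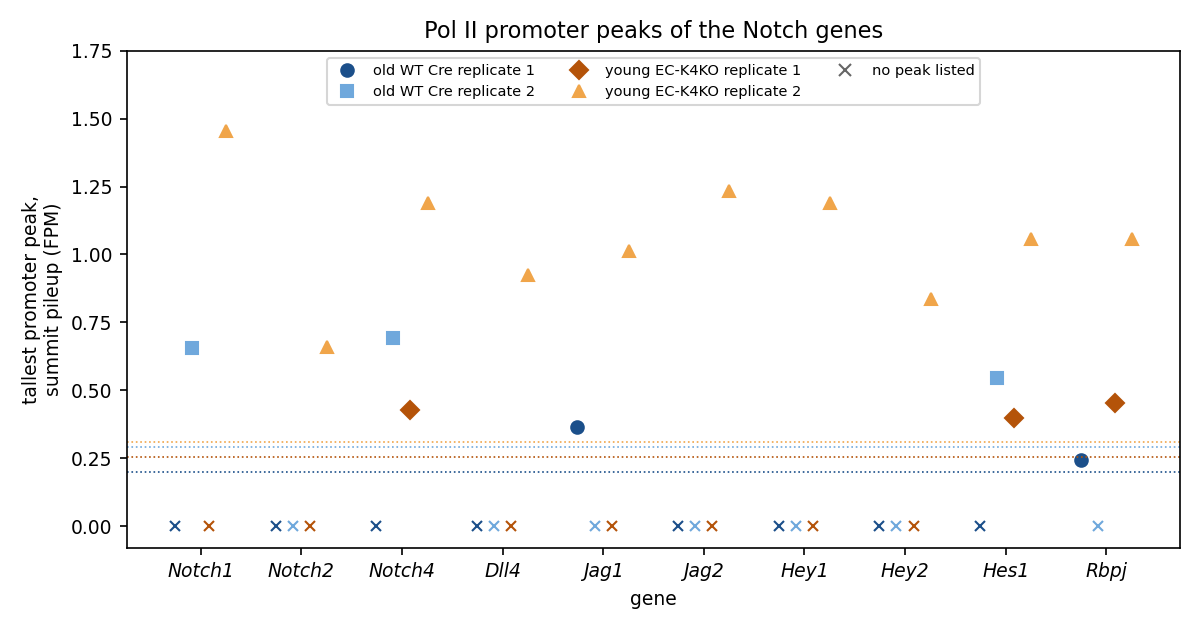
Level of the tallest promoter peak of each gene (pileup at the summit in FPM, vertical axis) in the 4 libraries, with crosses at 0 where no peak was listed and dotted lines at the smallest called pileup of each library. Every gene has a value in young 2, between 0.661 and 1.45 FPM, and the other libraries have values at 2 or 3 genes each.

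No gene of the 10 had a promoter peak in both old WT Cre libraries, against 10.1% of all genes. Both young EC-K4KO libraries had one at Notch4, Hes1 and Rbpj, against 9.11% of all genes, and no Notch gene had one in all 4 libraries, against 2.21%. With each list limited to its 35638 strongest peaks, the length of the shortest, the count in young 2 fell to 5, namely Notch1, Notch4, Hey1, Hey2 and Rbpj, where 27.7% of all genes had such a peak. Notch4 and Rbpj were then left as the genes with one in both young EC-K4KO libraries, against 5.20% of all genes. At a q-value of at most 1e-05, or at a fold enrichment of at least 4, Rbpj was the 1 gene with a promoter peak in both young EC-K4KO libraries, against 2.62% and 5.49% of all genes, and Dll4 had none in any library.

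Among the receptors, Notch1, which carries most Notch signalling in endothelium, had a promoter peak in old 2 and in young 2. The level was 0.656 FPM in old 2 and 1.45 FPM in young 2, with summits 272 and 239 bp after the start site (chromosome 2, 26503822, minus strand), and no peak was listed in the other pair of libraries. The groups overlapped, and the counting intervals of the 2 peaks (exact Poisson, 95%) ran from 0.389 to 1.04 and from 1.00 to 2.04 FPM. As fold enrichment the order of these 2 peaks was the reverse, at 4.97 and 4.40. At Notch2 a promoter peak was listed in young 2 alone, at 0.661 FPM, which was the lowest level among the 10 genes in that library.

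At Notch4, the endothelial receptor, 3 libraries had a promoter peak. The level was 0.692 FPM in old 2, 0.426 in young 1 and 1.19 in young 2, and none was listed in old 1. The old WT Cre value lay between the young EC-K4KO values, so the groups overlapped. The summits lay 149, 412 and 118 bp after the start site at chromosome 17, 34564268, that is, just after the stretch shown above. With the start sites of the comprehensive annotation, an alternative added after the data were seen, old 1 also had a promoter peak, at 0.441 FPM, since an internal start brought in a peak that is otherwise counted in the gene body, 23178 bp after the first start site. Notch4 was then the only one of the 10 genes with a promoter peak in all 4 libraries. The share of all genes under that annotation was not counted.

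Of the ligands, Jag1 had a promoter peak in old 1 and young 2, and Dll4 and Jag2 had one in young 2 alone. Jag1 stood at 0.365 FPM in old 1 and 1.01 FPM in young 2, at summits -333 and -359 bp from its start site at chromosome 2, 137116644 (negative distances are upstream), so that the pair of peaks shared a place before the gene. A further Jag1 peak in young 2 had its summit 579 bp into the gene, at 0.969 FPM. Dll4, the ligand of tip cells and arteries, was at 0.925 FPM with a summit 653 bp after its start, and no Dll4 promoter peak was left with a window of 500 bp, at the stricter q-value or in lists of equal length. The tallest promoter peak of Jag2 was at 1.23 FPM, in a coding exon 841 bp after the start.

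Of the target genes, the arterial repressors Hey1 and Hey2 had a promoter peak only in young 2, at 1.19 and 0.837 FPM, with fold enrichments of 7.83 and 7.17 that were the highest among the members' promoter peaks. With a window of 3000 bp Hey1 also had one in old 1, at 0.426 FPM, and Hey2 one in old 2, at 0.473 FPM, and the differences of means, old minus young, moved from -0.595 to -0.382 and from -0.418 to -0.182 FPM. At Hes1 the wider window moved it the other way, from -0.454 to -0.850 FPM. Hes1, a repressor gene that Notch switches on in many tissues, had one in 3 libraries, at 0.546 FPM in old 2 and at 0.397 and 1.06 FPM in young 1 and young 2. The groups overlapped, and the peaks did not share 1 place. Those of old 2 and young 2 had summits at -872 and -803 bp from the start site, and that of young 1 lay 1477 bp after it, near the edge of the window. With a window of 500 bp Hes1 had no promoter peak in any library. The tallest Hes1 peak of any library lay past the window, in a coding exon 2018 bp after the start, at 1.85 FPM in young 2.

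Rbpj was the only one of the 10 genes whose promoter level was higher in both young EC-K4KO libraries than in both old WT Cre libraries, an order found at 5.43% of all genes. It stood at 0.243 FPM in old 1, with none listed in old 2, and at 0.454 and 1.06 FPM in young 1 and young 2. With an absent peak taken as 0, the means were 0.122 ± 0.172 and 0.756 ± 0.426 FPM (SD, n = 2 each), a difference of -0.634 FPM, old minus young (two-sided exact permutation of the 4 libraries, p = 0.33, the smallest that 2 against 2 allow). The peaks of old 1 and young 1 each held 16 fragments, and their counting intervals overlapped, from 0.139 to 0.395 and from 0.260 to 0.738 FPM. The 3 peaks shared 94 bp, chr5:53590006-53590099, which lie within the Rbpj stretch shown above and begin at the last base of its first capitals. Without young 2 the difference was -0.332 FPM. The peaks stood at an internal start site, and with the outermost start site of each gene alone Rbpj had no promoter peak in any library.

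The opposite order, both old WT Cre libraries above both young EC-K4KO libraries, was found at none of the 10 genes and at 0.890% of all genes. The other 9 genes had overlapping groups, with exact permutation p-values of 0.6667 or 1.0 and no value below 0.33 possible. The differences of means, old minus young, ran from -0.634 FPM at Rbpj to -0.324 at Jag1 and were negative at all 10 genes. That sign was found at 14225 of all 21911 genes (64.9%). Only 16342 of the 21911 had a promoter peak in any library, and the difference is 0 at the rest. It was therefore the usual sign among genes with a peak. Without young 2 the differences at Notch1 and Jag1 turned to 0.328 and 0.183 FPM, and those at Notch2, Dll4, Jag2, Hey1 and Hey2 were 0 for want of any peak. Without young 1 the differences at these 5 genes doubled in size, to between -1.23 FPM at Jag2 and -0.661 FPM at Notch2, since young 2 then stood alone. With each library left out in turn, the difference at Notch4 (-0.461 FPM) ran from -0.843 FPM without young 1 to -0.0798 FPM without young 2, and that at Hes1 (-0.454 FPM) from -0.784 to -0.124 FPM without the same libraries.

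The gene bodies, where Pol II moves during transcription, were the next places compared. A gene body peak was listed at 5 and 3 of the 10 genes in old 1 and old 2, against 45.8% and 32.0% of all genes, and at 2 and 9 genes in young 1 and young 2, against 25.2% and 68.0%. In peaks per 100 kb of gene body, the 10 genes had 3.06, 2.29, 1.02 and 14.8 in old 1, old 2, young 1 and young 2, and all genes had 3.20, 1.47, 1.17 and 9.35. Notch2, the longest member at 137 kb, held 4, 4, 3 and 24 body peaks in the 4 libraries in that order, and Rbpj, at 102 kb, held 4, 4, 1 and 9. Notch1 held 0, 1, 0 and 11 body peaks over 45.9 kb. Hey2 was the 1 gene with no body peak in any library. Over the libraries in the same order, 10 of 12, 8 of 9, 4 of 4 and 42 of 58 body peaks had their summits in introns. The intron share was not counted over all genes.

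**Figure D2:**
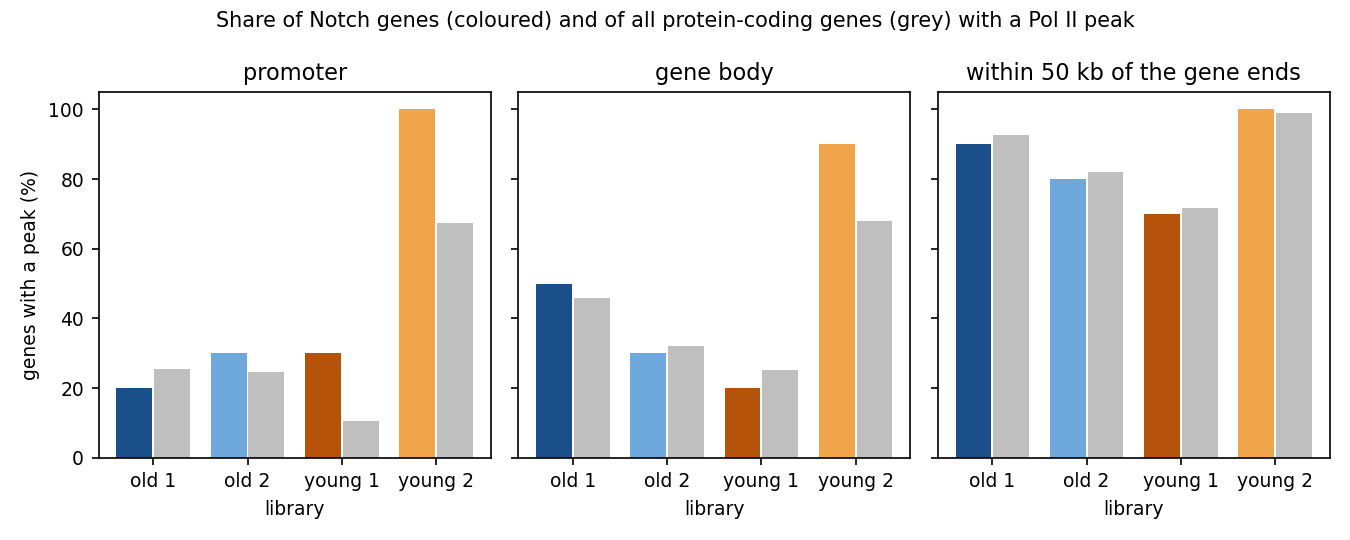
Share of the 10 Notch genes (coloured bars) and of all 21911 protein-coding genes (grey bars) with at least 1 peak in the promoter, the gene body and within 50 kb of the gene's ends, in per cent, for each library. The flank bars of the Notch genes lie within a few points of the grey bars in every library, and the largest gap is at the promoter in young 2.

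Peaks within 50 kb of the gene's ends were listed at 9 and 8 of the 10 genes in old 1 and old 2, against 92.8% and 82.1% of all genes, and at 7 and 10 genes in young 1 and young 2, against 71.6% and 99.1%. These counts lie near those of all genes. The peaks themselves numbered 47, 24, 17 and 136 in the 4 libraries, or 4.70, 2.40, 1.70 and 13.6 per 100 kb, against 3.98, 2.08, 1.45 and 12.01 around all genes. Dll4 had 8, 5, 2 and 23 of them and Hey1 had 8, 2, 6 and 10, while Jag1 had 0, 1, 0 and 4. After merging of overlapping peaks, 17 of 194 flank regions lay at the promoter of another gene, for example a region downstream of Notch1 at Sec16a, so a flank peak cannot be ascribed to the Notch gene it lies near.

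**Figure D3:**
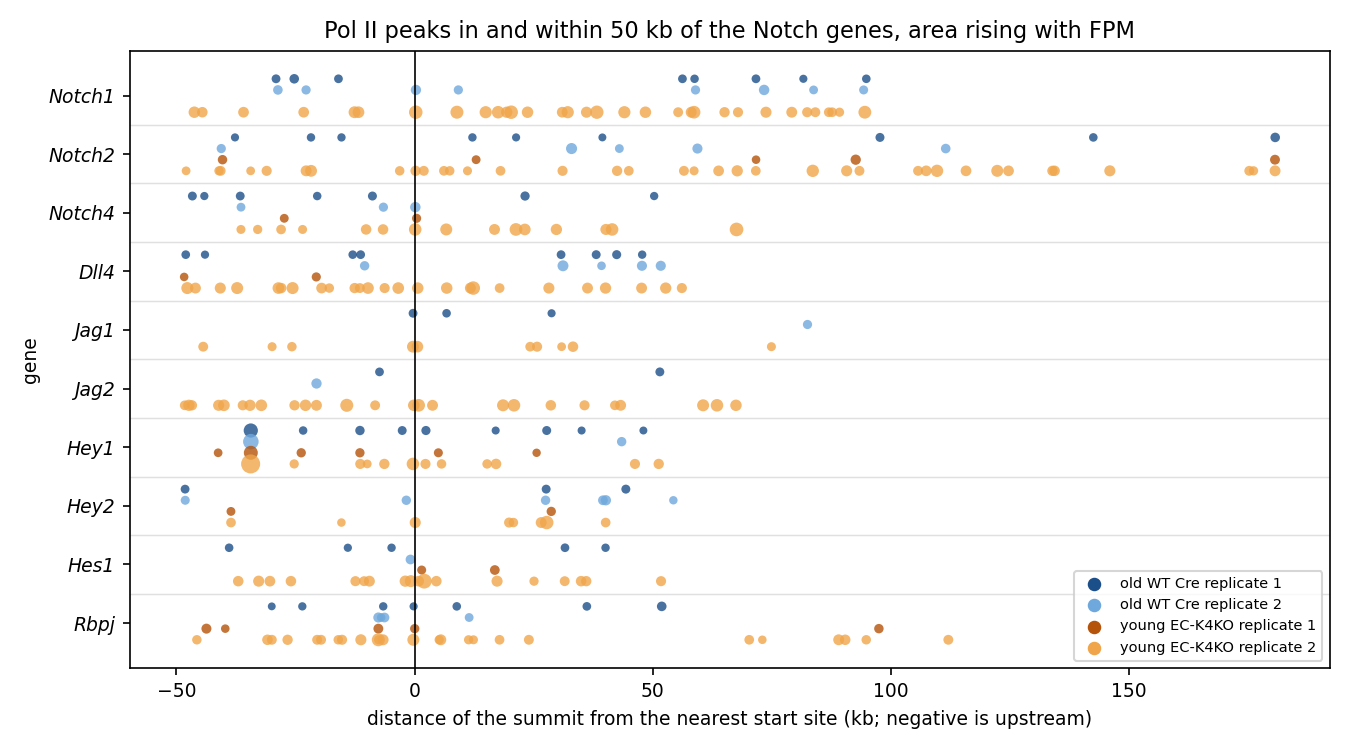
Summits of all peaks in and around the 10 genes by distance from the nearest start site in kb (horizontal axis, negative is upstream), 1 row of points for each library, with the area of a point rising with its pileup FPM. The largest point of each library is at Hey1 near -34390 bp, and most points belong to young 2.

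Most regions were found in 1 library, around the Notch genes as over the genome. The peaks of the 10 genes merged into 282 regions, of which 249 were found in 1 library, 22 in 2, 10 in 3 and 1 in all 4, and 177 were found in young 2 alone. Of all 334109 regions of the genome, 87.4% were found in 1 library, 10% in 2, 1.95% in 3 and 0.646% in all 4. Both old WT Cre libraries shared 9 regions and both young EC-K4KO libraries shared 8. Regions found in young 2 alone, or in both libraries of a group, were not counted over the genome. Whether the 177, 9 and 8 regions differ from the genome was therefore not tested. A region in at least 3 libraries was present at 7 of the 10 genes, against 38.6% of all genes, and a region in all 4 at 1 gene, Hey1, against 9.45%. Of the 11 regions found in 3 or 4 libraries, 2 were the promoter regions of Notch4 and Rbpj, 2 lay in an Rbpj intron, and 7 lay in the flanks.

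The single region common to all libraries was upstream of Hey1, at chr3:8701413-8702039, -34390 bp from the start site. Its pileup was 1.66 and 2.08 FPM in old 1 and old 2 and 1.59 and 3.35 FPM in young 1 and young 2, at 13.0-fold, 13.0-fold, 9.62-fold and 11.9-fold enrichment. In each library this was the tallest peak in or around the 10 genes, and the groups overlapped, since the lowest and the highest value were both in young EC-K4KO libraries. The region was repeat-masked over 100% of its length. The stretch chr3:8701738-8701837, shown on the minus strand because it tells what the tallest shared peak stands on, is a tandem repeat in which capitals mark the unit TGCC.
Hey1 upstream region: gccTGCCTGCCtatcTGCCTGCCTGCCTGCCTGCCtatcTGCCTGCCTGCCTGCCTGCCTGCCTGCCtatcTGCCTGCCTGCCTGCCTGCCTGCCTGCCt

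A further pair of shared regions, in an Rbpj intron -7616 and -6591 bp from the nearest start site, was also tandem repeat, although 0% of either was masked. In the first the levels were 0.619 FPM in old 2 and 0.568 and 1.32 FPM in young 1 and young 2, and it repeated with a period of 62 bp at which 89.9% of bases matched. In the second, where 74.5% of bases matched at a period of 126 bp, the levels were 0.289, 0.546 and 0.793 FPM in old 1 and old 2 and young 2. A stretch of the second, chr5:53583509-53583708 on the plus strand, is shown with 1 copy of 62 bases in capitals.
Rbpj intron: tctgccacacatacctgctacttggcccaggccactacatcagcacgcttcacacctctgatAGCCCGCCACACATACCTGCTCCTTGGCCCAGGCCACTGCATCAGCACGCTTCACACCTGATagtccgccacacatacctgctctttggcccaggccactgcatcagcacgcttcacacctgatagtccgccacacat

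Repeats were common among the places that libraries shared. Of the 11 regions of the Notch genes found in 3 or 4 libraries, 4 were masked over more than 50% of their length, 3 were tandem repeats, and 6 were one or the other. Over the whole genome 7.70% of the 8673 regions in 3 or 4 libraries were tandem repeats and 58.7% were one or the other, and the median masked share was 14.2% for regions of 1 library, 20% for 2, 57.9% for 3 and 96.8% for all 4. Among the regions of the Notch genes found in 1 library, 39 of 249 (15.7%) were masked over more than 50%, against 28.9% of all such regions. The part of repeats in the levels was not tested. The shared regions that were neither tandem repeats nor mostly masked were the promoter regions of Notch4 and Rbpj, a region -11478 bp from the Hey1 start (0.472, 0.454 and 0.617 FPM in old 1 and young 1 and young 2), the downstream region of Notch1 at Sec16a, and a region downstream of Dll4 (0.289, 0.619 and 0.793 FPM in old 1 and old 2 and young 2).

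**Figure D4:**
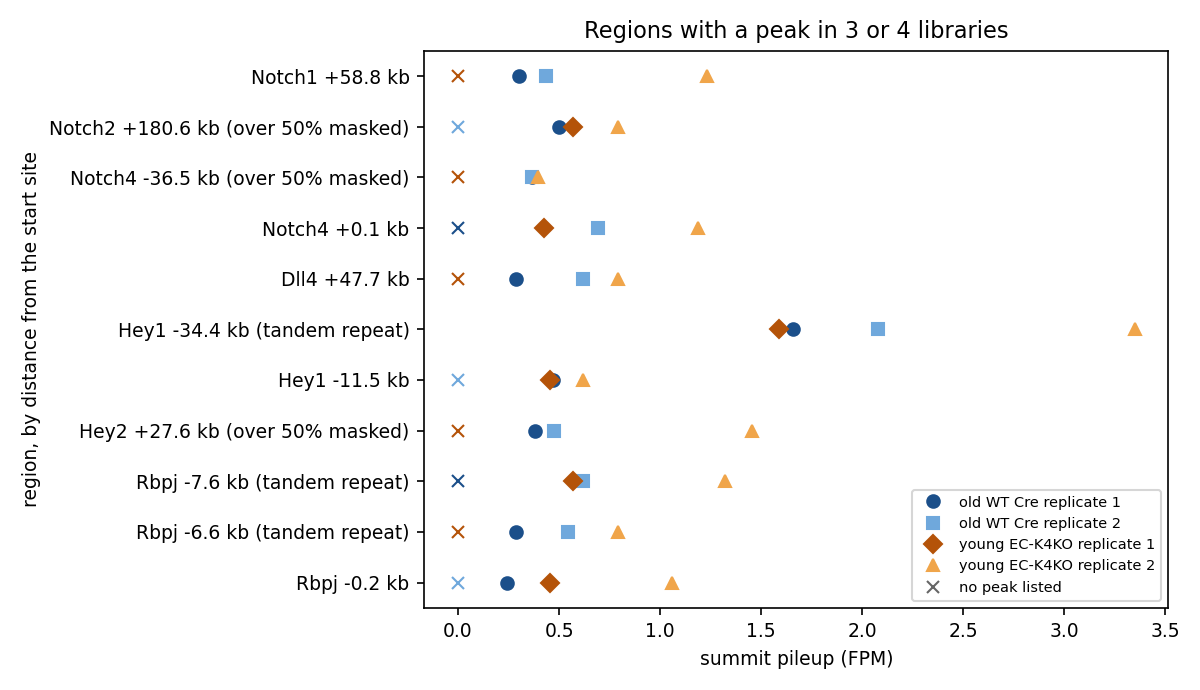
Pileup at the summit in FPM (horizontal axis) of the 11 regions with a peak in 3 or 4 libraries, named by gene and distance from the nearest start site, with crosses at 0 where no peak was listed. The Hey1 region near -34390 bp stands apart in every library, at 1.59 FPM or more.

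The pathway beyond the 10 genes was read from 50 further genes, from receptor processing to co-repressors. A promoter peak was listed at 14, 13, 9 and 39 of them in old 1, old 2, young 1 and young 2, that is, at 28.0%, 26.0%, 18.0% and 78.0%, beside the 25.6%, 24.5%, 10.6% and 67.5% of all genes given above. Both old WT Cre libraries had one at 5 of the 50 genes and both young EC-K4KO libraries at 7, against 10.1% and 9.11% of all genes. In all 4 libraries it was listed at 3 genes, against 2.21% of all genes, namely Ncor1, a co-repressor, Ep300, the acetyltransferase p300 that joins the Notch activation complex, and Efnb2, the arterial ligand ephrin-B2. Efnb2 stood at 0.304 and 0.692 FPM in old 1 and old 2 and at 0.369 and 0.837 FPM in young 1 and young 2, and the groups overlapped. Ncor1 stood at 0.350, 0.328, 0.284 and 1.01 FPM in the same order, and Ep300 at 0.213, 0.437, 0.312 and 0.881 FPM.

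No gene of the wider list had a promoter peak in both libraries of old WT Cre mice but in no young EC-K4KO library, against 0.780% of all genes. The reverse was found at 2 of the 50 genes, against 3.09% of all genes and none of the 10 members, one of them being Spen, a co-repressor that binds RBPJ, at 0.312 and 1.37 FPM in young 1 and young 2. Notch3, the receptor of mural cells, had a promoter peak at 0.437 FPM in old 2 and 0.705 FPM in young 2. Promoter peaks at the 8 mural markers, Notch3 among them, numbered 3, 1, 2 and 5 in old 1, old 2, young 1 and young 2, with summed levels of 0.882, 0.437, 0.681 and 3.57 FPM. These are 37.5%, 12.5%, 25.0% and 62.5% of the list, beside the shares of all genes given above. Marker genes of astrocytes, microglia, neurons and oligodendrocytes, 6 of each, also had promoter peaks, at 3 to 5 of each list in young 2 and at 0 to 3 in the other libraries. Their summed levels were 0.274 to 1.05 FPM a list in old 1 and old 2, 0 to 0.511 FPM in young 1 and 2.55 to 4.49 FPM in young 2. As shares of a list the counts in young 2 were 50% to 83.3%, on either side of the 67.5% of all genes. The part of other cell types in the levels of the Notch genes was not tested, and in a peak list fewer cells that use a gene and less Pol II at the gene in each cell cannot be told apart.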

How the data were processed

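Pol II ChIP-seq peak lists of 4 libraries were used. Per the study's methods and the labels, reads were trimmed and aligned by the authors to mm10 (GRCm38) with Bowtie2, with duplicates removed, and per the file headers peaks were called in each library with MACS 2.2.7.1 at q 0.01 without a control. The deposited tables give, for each peak, the pileup (a signal in fragments), the fold enrichment (a ratio to local background) and −log10 of the p-value and q-value. None is normalized between libraries. Here, the pileup was divided by the library's fragments and multiplied by 1000000 (FPM). Overlaps (at least 1 bp) with start sites and genes of the GENCODE M21 basic annotation were counted in Python 3.11.15 with pandas 2.3.3, and motifs and tandem repeats (at least 70% of bases matching at a period of up to 150 bp) were searched in GRCm38, with repeat masking from RefSeq's assembly. Groups were compared by two-sided exact permutation, and lists by counts beside those of all protein-coding genes. The assignment of peaks to places, and the overlap search behind it, returned the right answer for all planted test intervals. Peak calling and the other steps were not tested in this way. The named genes were the members and, of the wider list, genes with a promoter peak in all 4 libraries or in both libraries of 1 group alone, of which 1 is not reported here. No member had a promoter peak in all 4 libraries, so no gene of like pattern was sought. Notch3, Sec16a and the marker genes were named after their values were seen. Members and lists were chosen with earlier results of these data known. Intervals cover counting error only.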

Additional observations from a re-analysis of the deposited data

How the results depend on the processing

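Settings that moved a count or a difference by more than 1.5 times are given here. The number of Notch genes with a promoter peak in old 1 was 1 at q of at most 1e-05, at a fold enrichment of at least 4, in lists of equal length and with the outermost start alone, against 2. In young 1 it was 1 at that q and at that enrichment, against 3, and the count in both young EC-K4KO libraries was then also 1. In young 2 it was 5 in lists of equal length, against 10. With the comprehensive annotation, added after seeing the data, it was 1 for both old WT Cre libraries together and 1 for all 4. With a replicate left out, a group's count was that of its 1 library kept. It was 2 in old 1 alone and 3 in old 2 alone for old WT Cre. For young EC-K4KO it was 3 in young 1 alone and 10 in young 2 alone. The count in all libraries kept ran from 0 to 2, and the count of each remaining library stayed as it was. Peaks in the bodies and flanks numbered 59, 33, 21 and 194 in old 1, old 2, young 1 and young 2. They numbered 27, 14, 8 and 111 with flanks of 20 kb, and 99 and 318 in the first and the last library with flanks of 100 kb. At the stricter q they numbered 31, 16, 9 and 127, and in lists of equal length 23 and 24 in the first and the last. Leaving out a replicate does not change these counts per library. The difference at Notch1 reversed to 0.288 as fold enrichment and, with a replicate left out, ranged from -1.13 to 0.328, and that at Jag1 from -0.830 to 0.183, both positive without young 2. Other differences that moved by more than 1.5 times, with no change of sign, were Notch4 and Hes1 at the stricter q (-0.249 and -0.255 FPM) and Notch2 with an absent peak at the smallest called pileup (-0.213 FPM), besides those given in the report. Left-out replicates moved Notch1 to between -0.0711 and -0.727 FPM without old 1 or old 2, and Jag1 to between -0.141 and -0.506 FPM. The cause was not tested. With the replicate numbers as a block, the difference at Rbpj was -0.634 FPM (exact sign changes, p = 0.5, the smallest that 2 pairs allow), and no call changed, since no p can pass. The log ratio of replicate 1 to replicate 2 correlated at 0.0553 between the groups, over 16342 genes with 0.1 added to each level. Many of these levels were absent peaks, so this cannot tell whether the numbers pair the samples. Depth limits what an absent peak means: the files give no pileup where no peak was called.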
